A study of Mus musculus with 8 samples.

Results

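Butyrate-treated MCE301 cells were examined for the genes of the constitutive proteasome, the protease that degrades proteins tagged with ubiquitin. The genes were taken from the platform annotation by symbol, as those that begin with Psma, Psmb, Psmc, Psmd or Psme and a digit, without the interferon-induced Psmb8, Psmb9 and Psmb10. This gave 38 genes of the 12393 named on the array, with 71 probe sets, and each gene was read from its probe set with the highest mean over the 8 arrays. They comprised 15 genes of the 20S core, 9 of the base and 8 of the lid of the 19S regulatory particle, 3 assembly chaperones and 3 activators. The name rule also took Psmc3ip and Psme3ip1, which encode proteins that bind a proteasome protein and are no subunits, and 1 probe set shared by Psme2 and Psme2b. These were kept out of the counts.

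MCE301 is a mouse colonic epithelial line from animals with a transgene for a heat-sensitive form of the SV40 large T-antigen, so every group carries that transgene. The cells were given sodium butyrate at 2 mM for 0, 6, 12 or 24 h, with 2 Affymetrix 430A arrays at each time and 8 in all. Butyrate, made by gut bacteria from fibre, blocks histone deacetylases. Whether the 2 arrays of each time stand for separate cultures is not in the labels, and the p-values cover only the spread between arrays, which may be technical. No cells kept without butyrate for 6, 12 or 24 h were analysed here, so butyrate and time in culture cannot be told apart. Signals had a 2% trimmed mean of 500.2 on every array, and each value is therefore a level relative to the other transcripts of the same array, in which fewer cells and less RNA per cell cannot be told apart. Of 8 epithelial markers 7 passed the filter on low signals, while the marker Vil1 did not, with a mean signal of 15.4. No marker of immune, endothelial or fibroblast cells passed it (0 of the 4, 4 and 5 on the array). The summed signal of the epithelial markers was 74493 to 88017 at 24 h and 57425 to 62665 at 0 h. The list went both ways at 24 h: Krt8, Krt18, Cdh1 and Cldn4 rose (log2 changes of 0.51 to 0.77), Cldn3 fell (4127.5 and 5497.7 at 24 h, against 8783.1 and 10001.4 at 0 h; log2 change -0.97 ± 0.25, adjusted p = 0.00823), and Krt19 and Epcam were not called. The summed signal of the immune markers was 203.0 to 254.9 at 24 h and 169.1 to 170.0 at 0 h, that of the endothelial markers 190.3 to 225.8 at 24 h and 86.2 to 160.5 at 0 h, and that of the fibroblast markers 200 to 261.7 at 24 h and 209.2 to 335.5 at 0 h. The part of these differences in the results was not tested.

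The core particle is a barrel of stacked rings in which alpha subunits form the gated outer rings and beta subunits the inner ones, where the peptide bonds are cut. The base of the regulatory particle holds a ring of ATPases that unfolds the substrate and the receptors that bind ubiquitin, and the lid removes the ubiquitin chain. Subunit genes are known to be induced together by the transcription factor Nfe2l1 when proteasome activity is limiting, and colonic epithelial cells, like other cells, use the particle to degrade cell cycle regulators and damaged proteins.

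The promoters of members with a large change at 24 h and of catalytic core genes are shown because the signals were compared between genes that are thought to share control elements. RefSeq windows on build GRCm38.p6, from 250 bases before to 50 bases after the start, were found for 31 of the 38 genes. Both strands were searched for the antioxidant response element TGACNNNGC, the CCAAT box CCAAT and the E-box CACGTG, and matches of different motifs could overlap. Psmd8 and Psmd4 had the largest rises among the genes with a window, Psme3 and Psmd14 the largest falls, and Psmb5 and Psmb6 encode catalytic subunits and have an antioxidant response element match. Capitals mark the matches.
Psmd8, chr7:29180624-29180923 on the minus strand: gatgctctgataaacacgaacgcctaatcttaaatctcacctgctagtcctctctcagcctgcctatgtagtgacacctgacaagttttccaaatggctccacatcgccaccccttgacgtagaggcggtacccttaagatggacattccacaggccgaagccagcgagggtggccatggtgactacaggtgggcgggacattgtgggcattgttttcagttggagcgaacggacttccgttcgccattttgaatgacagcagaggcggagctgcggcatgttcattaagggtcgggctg
Psmd4, chr3:95042565-95042864 on the minus strand: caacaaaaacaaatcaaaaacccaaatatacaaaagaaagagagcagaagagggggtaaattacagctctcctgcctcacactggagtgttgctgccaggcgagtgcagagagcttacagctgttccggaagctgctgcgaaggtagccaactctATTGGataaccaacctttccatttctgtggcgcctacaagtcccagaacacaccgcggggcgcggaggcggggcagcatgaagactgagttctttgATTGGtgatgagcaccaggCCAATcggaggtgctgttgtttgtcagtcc
Psme3, chr11:101315963-101316262 on the plus strand: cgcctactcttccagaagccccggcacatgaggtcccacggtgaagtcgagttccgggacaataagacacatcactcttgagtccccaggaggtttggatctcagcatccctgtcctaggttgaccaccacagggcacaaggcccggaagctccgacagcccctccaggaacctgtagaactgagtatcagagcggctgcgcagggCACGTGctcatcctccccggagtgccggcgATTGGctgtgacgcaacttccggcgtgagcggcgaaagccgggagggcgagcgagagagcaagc
Psmd14, chr2:61711444-61711743 on the plus strand: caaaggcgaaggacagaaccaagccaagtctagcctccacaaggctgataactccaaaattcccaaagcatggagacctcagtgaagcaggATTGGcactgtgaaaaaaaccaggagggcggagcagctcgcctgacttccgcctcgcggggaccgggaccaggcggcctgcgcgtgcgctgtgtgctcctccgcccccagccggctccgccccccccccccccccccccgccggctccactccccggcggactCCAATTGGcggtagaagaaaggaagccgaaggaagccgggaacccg
Psmb5, chr14:54617946-54618245 on the minus strand: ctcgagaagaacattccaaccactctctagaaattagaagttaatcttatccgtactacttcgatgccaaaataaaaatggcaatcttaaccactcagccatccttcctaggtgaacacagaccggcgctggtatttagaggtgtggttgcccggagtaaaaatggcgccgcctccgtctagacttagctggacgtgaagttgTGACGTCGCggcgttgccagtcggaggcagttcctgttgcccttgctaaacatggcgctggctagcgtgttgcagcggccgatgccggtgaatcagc
Psmb6, chr11:70525107-70525406 on the plus strand: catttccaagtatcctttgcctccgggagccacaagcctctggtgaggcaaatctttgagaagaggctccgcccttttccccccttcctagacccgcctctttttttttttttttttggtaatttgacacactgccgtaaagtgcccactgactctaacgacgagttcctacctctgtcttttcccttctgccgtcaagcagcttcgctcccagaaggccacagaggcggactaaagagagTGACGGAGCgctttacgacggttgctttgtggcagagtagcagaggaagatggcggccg
The window of Psmd8 holds none of the 3 motifs. That of Psmd4 holds 3 CCAAT boxes, that of Psmd14 3 (a pair of them overlapping, 1 on each strand), and that of Psme3 1 CCAAT box and 1 E-box. Over the 31 members, 6 (19.4%) had an antioxidant response element match, 12 (38.7%) a CCAAT box and 3 (9.68%) an E-box, and over all 27025 genes of the promoter table the shares were 14%, 41.1% and 8.09%. The genes with a match in the first motif were Psmb5, Psmb6, Psmc6, Psmd12, Psmd9 and Psme4. A match is a description of the letters and no site.

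Proteasome transcripts moved little while much of the transcriptome moved. Signals were analysed as log2(signal + 32), and 37 of the 38 members passed the filter on low signals. A gene was called at an adjusted p under 0.05 (limma, Benjamini-Hochberg over the 7340 genes). The comparisons at 6, 12 and 24 h share the 0 h arrays and are not independent. At 6 h, 0 members were called, against 15.7% of all genes tested (9.06% higher and 6.68% lower). At that time 1 member (2.7%) had an unadjusted p under 0.05 in the limma fit, against 30.1% of all genes. At 12 h, 1 member was called, higher, against 35.6% of all genes in either direction, 18.1% higher and 17.5% lower. At 24 h, 12 members were called, 32.4% of the 37, against 48.1% of all genes; 8 were higher (24.6% of all genes) and 4 lower (23.5%). With the replicate number as a block the counts were 1 higher at 6 h (21.7% of all genes called), 5 higher at 12 h (42.4%) and 9 higher and 4 lower at 24 h (54.1%). Leaving out any 1 of the 4 arrays compared lowered the 24 h counts. They were 1 higher and 0 lower without the 0 h replicate 1 array (36% of all genes called), and 2 higher and 2 lower without its partner at 0 h (36.2%). They were 4 higher and 1 lower without the 24 h replicate 1 array (36.9%), and 2 higher and 2 lower without its partner at 24 h (38%). With no filter on low signals they were 1 higher (Psmd4) and 2 lower (Psmc3 and Psme3), with 24.6% of all genes called. All 12 kept their direction under all 18 alternatives, and 0 of the 12 kept the call under all of them.

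No member changed by 2-fold at any time. The largest log2 change, that of Psmd8 at 24 h, was 0.80, while 18.8% of all genes were called with at least a 2-fold change at that time (4.55% at 6 h and 11.6% at 12 h). The median absolute log2 change of the 37 members was 0.10 at 6 h, 0.17 at 12 h and 0.28 at 24 h, and that of all genes 0.26, 0.38 and 0.48. The median standard error was 0.16 for members and 0.18 for all genes. At 24 h, the 95% interval of the change lay within 2-fold in both directions for 35 of 37 members (94.6%) and for 57.3% of all genes. The median signed change of the members was 0.02, 0.10 and 0.03 at the 3 times, with 22, 22 and 21 of 37 above 0, and that of all genes was 0.01, 0.03 and 0.04.

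**Figure D1:**
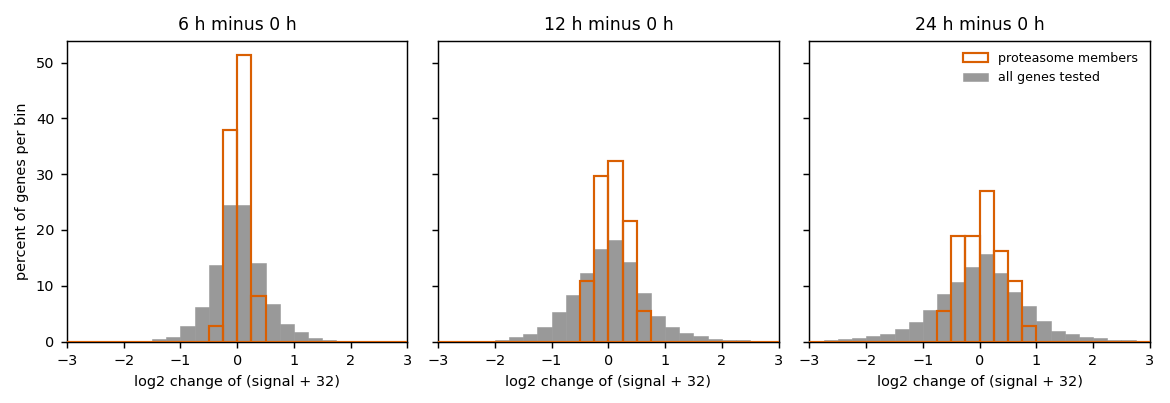
Percent of genes in bins of log2 change of (signal + 32), 0.25 wide, at 6, 12 and 24 h against 0 h, for the 37 proteasome members (open bars) and all 7340 genes tested (filled bars). The member bars stay between -1 and 1 in every panel.

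The core (14 tested genes) had a median log2 change of 0.02 at 6 h, 0.10 at 12 h and 0.03 at 24 h, the base (9 genes) -0.09, -0.11 and -0.17, and the lid (8 genes) 0.01, -0.08 and -0.01. When each array in turn was left out, these medians at 24 h ran from -0.02 to 0.06 for the core, -0.255 to -0.0194 for the base and -0.171 to 0.174 for the lid. At 6 h the base ran from -0.166 to 0.159 and at 12 h from -0.110 to 0.0956. Its 6 h median was 0.159 when replicate 1 of 6 h was left out. Its 12 h median was above 0 when either 12 h array was left out (0.0956 without replicate 1, 0.0155 without replicate 2). The lid at each time and the core at 6 and 24 h also took both signs. Averaging the probe sets of a gene gave 24 h medians of -0.220 for the lid and -0.0638 for the base. At 24 h the median absolute change was 0.15 in the core, 0.35 in the base and 0.36 in the lid. Called genes were 2 of 14 in the core (14.3%), 3 of 9 in the base (33.3%) and 4 of 8 in the lid (50%), against 48.1% of all genes. Without 0 h replicate 1 the 3 counts were 0, 0 and 0, without 0 h replicate 2 they were 0, 2 and 1, without 24 h replicate 1 they were 0, 1 and 2, and without 24 h replicate 2 they were 0, 3 and 0. With no filter on low signals they were 0, 2 and 0. The classes were not tested against each other.

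**Figure D2:**
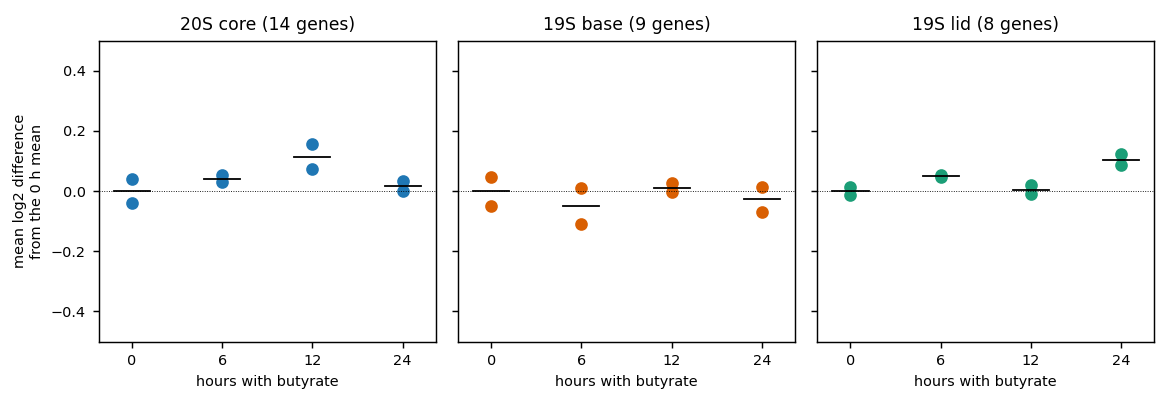
Mean over the tested genes of a class of the log2 difference of each array from the 0 h mean, with 1 point per array and a line at the mean of the 2 arrays. Every array lies within 0.2 of the 0 h mean in the core, the base and the lid.

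Of the 7 tested alpha ring genes, 1 was called at 24 h (14.3%), against 48.1% of all genes. Psma3, a subunit of the outer ring, had signals of 6174.8 and 5872.8 at 24 h, against 8682.7 and 7876.9 at 0 h. Both 24 h arrays lay below both 0 h arrays, and Psma3 fell by 0.46 on the log2 scale (log2 change -0.46 ± 0.15, adjusted p = 0.0317). The call was lost without any 1 of the 4 arrays compared (adjusted p up to 0.152). Psma6 had the highest change of the ring (0.29 ± 0.19, adjusted p = 0.223), and the others were between -0.33 for Psma4 and 0.20 for Psma2, not called. Psma8, which encodes the alpha subunit of the testis form, did not pass the filter, with signals of 16.3 to 59.9 over the 8 arrays, near the pseudocount of 32.

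The beta ring held the catalytic subunits, and none of these was called. Psmb5, the chymotrypsin-like subunit, had signals of 4285.4 and 3958.9 at 0 h, 4523.9 and 4004.9 at 6 h, 4142.7 and 3962.5 at 12 h and 3811.4 and 3847.6 at 24 h. The times overlapped except that the 24 h arrays lay just below the others, and the log2 change at 24 h was -0.10 ± 0.15 (95% interval -0.44 to 0.23, adjusted p = 0.606). Psmb6, the caspase-like subunit, averaged 4769 ± 120.3 at 24 h and 4506 ± 274 at 0 h (log2 change 0.08, 95% interval -0.36 to 0.53). Psmb7, the trypsin-like subunit, averaged 11794 ± 159 at 24 h and 12158 ± 283 at 0 h (SD, n = 2 arrays each; log2 change -0.04, 95% interval -0.39 to 0.31). None of the 3 intervals reached a change of 1 on the log2 scale. Psmb4, a beta subunit without proteolytic activity, was the member of the ring that was called. It had 11294 and 12410.9 at 24 h, against 8058.1 and 9189.1 at 0 h, with no overlap, a 1.37-fold rise (log2 change 0.46 ± 0.17, adjusted p = 0.0455). That call was lost in 8 of the 18 alternatives (adjusted p up to 0.212). The remaining genes, Psmb1, Psmb2 and Psmb3, had log2 changes of -0.01 to 0.24.

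In the base, 1 ATPase gene fell at 24 h and the genes of 2 non-ATPase subunits rose. Psmc3, an ATPase of the ring, had signals of 4813.4 and 4294.4 at 0 h, 3855.9 and 3934.5 at 6 h, 4010.7 and 3369.7 at 12 h and 2797 and 3142.1 at 24 h. All 6 later arrays lay below the 0 h arrays, and at 24 h Psmc3 was 1.53-fold lower (log2 change -0.61 ± 0.16, adjusted p = 0.0109; 0.0737 without 0 h replicate 1, 0.0712 without 24 h replicate 1). It was the largest fall among the members. The other ATPases were not called, with log2 changes of -0.43 for Psmc5, -0.35 for Psmc2, -0.17 for Psmc6, 0.16 for Psmc4 and 0.28 for Psmc1. Psmd4, which binds ubiquitin chains, had 3735.2 and 4212.3 at 0 h, 4295.8 and 4943.7 at 6 h, 4879.7 and 5776.5 at 12 h and 6159 and 6699 at 24 h. The arrays of each later time lay above those of 0 h, and at 24 h Psmd4 was 1.61-fold higher (log2 change 0.69 ± 0.17, adjusted p = 0.00649; 0.051 without 0 h replicate 1). At 12 h its log2 change of 0.42 ± 0.17 had an adjusted p of 0.0765, and of 0.0293 with the number of the replicate as a block. Psmd2, a scaffold that binds ubiquitin-like domains of shuttle proteins, rose 1.43-fold at 24 h, to 9459.4 and 8122.6, against 5940.8 and 6337.3 at 0 h (adjusted p = 0.0255; not called after quantile normalization or without either 0 h array or 24 h replicate 1). The other scaffold, Psmd1, was not called (log2 change -0.33 ± 0.22).

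**Figure D3:**
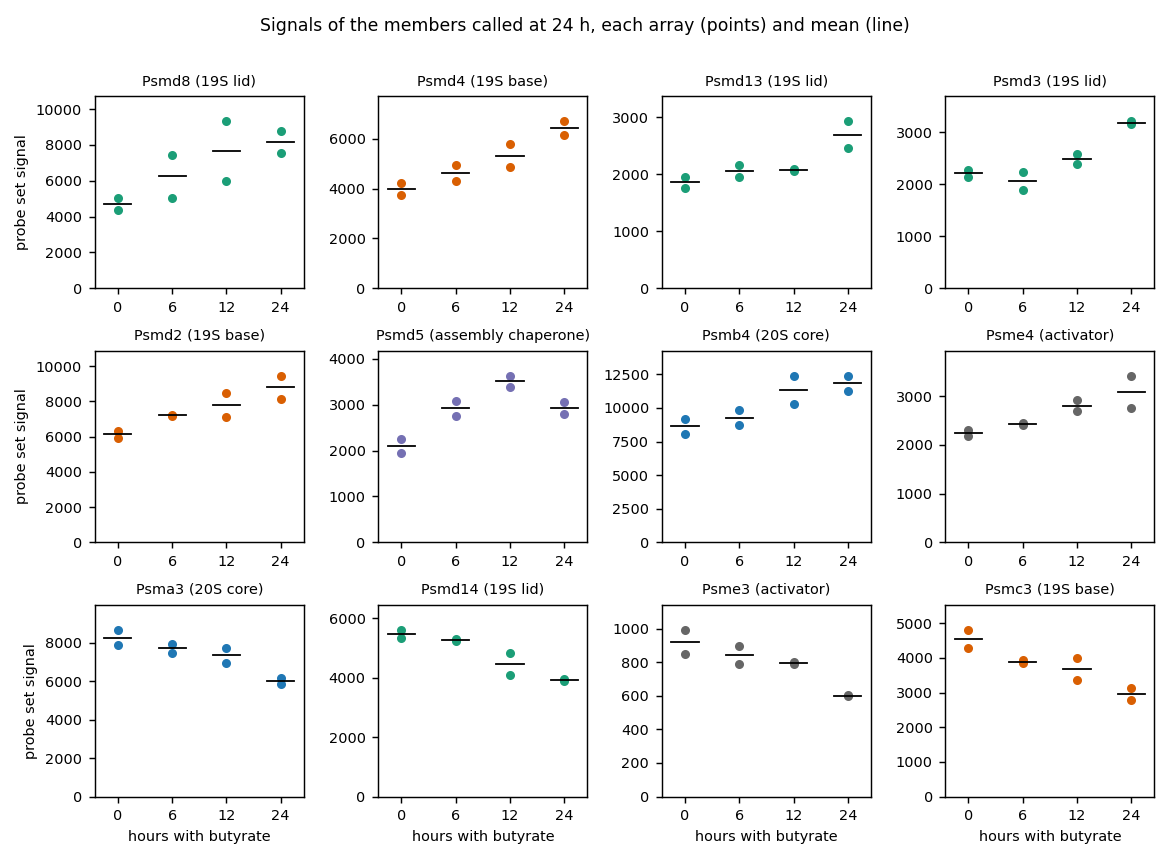
Probe set signals of the 12 members called at 24 h, by hours with butyrate, on linear axes from 0, ordered by the log2 change at 24 h. Points are single arrays and lines the mean of 2. The 24 h points of each gene do not overlap its 0 h points. The genes were chosen by their call at 24 h, so this is no further support. Members that were not called, such as Psma1 and Psmb5, also showed no overlap.

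In the lid, 3 genes were called higher and 1 lower of 8, a share near that of all genes, and none of the 4 was called without 0 h replicate 1 or without 24 h replicate 2. Psmd8, a structural lid subunit, had signals of 4338.9 and 5034.8 at 0 h, 5062.4 and 7425.4 at 6 h, 5966.7 and 9320.0 at 12 h and 7579.1 and 8761.7 at 24 h. The arrays of each later time lay above both 0 h arrays, with a wide spread at 6 and 12 h in which replicate 2 was the higher array. At 24 h Psmd8 was 1.74-fold higher (log2 change 0.80 ± 0.24, adjusted p = 0.0208), and the adjusted p was up to 0.117 when 0 h replicate 1, 0 h replicate 2 or 24 h replicate 2 was left out. At 12 h the log2 change was 0.67 ± 0.24 (adjusted p = 0.0548, and 0.00874 with the replicate block). The scaffold subunits Psmd13 and Psmd3 were also higher at 24 h. Psmd13 had 2455.6 and 2926.8 at 24 h, against 1758.8 and 1952.8 at 0 h (log2 change 0.53 ± 0.16, adjusted p = 0.0215; not called without 0 h replicate 1 or 24 h replicate 2). Psmd3 had 3210.2 and 3151.3 at 24 h, against 2283 and 2137.4 at 0 h (log2 change 0.52 ± 0.16, adjusted p = 0.02; not called without any 1 of the 4 arrays).

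Psmd14, the deubiquitinase of the lid that cleaves the ubiquitin chain from the substrate, was the lid gene that fell. Its signals were 5616.6 and 5352.1 at 0 h, 5313.9 and 5245.6 at 6 h, 4819.3 and 4080.5 at 12 h and 3904.1 and 3967.3 at 24 h. Both arrays of each later time lay below the 0 h arrays, and the 24 h arrays were 1.39-fold lower (log2 change -0.48 ± 0.16, adjusted p = 0.0276; up to 0.116 without any 1 of the 4 arrays). Psmd6, Psmd7, Psmd11 and Psmd12 were not called, with log2 changes of -0.25 to 0.13. The probe sets of Psmd11, a lid scaffold with 4 probe sets that passed the filter, disagreed. The one with the highest mean had a log2 change of 0.13 at 24 h, and the other 3 had -0.42, -0.38 and -0.09 (adjusted p of 0.058 to 0.71 in the fit of all named probe sets).

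**Figure D4:**
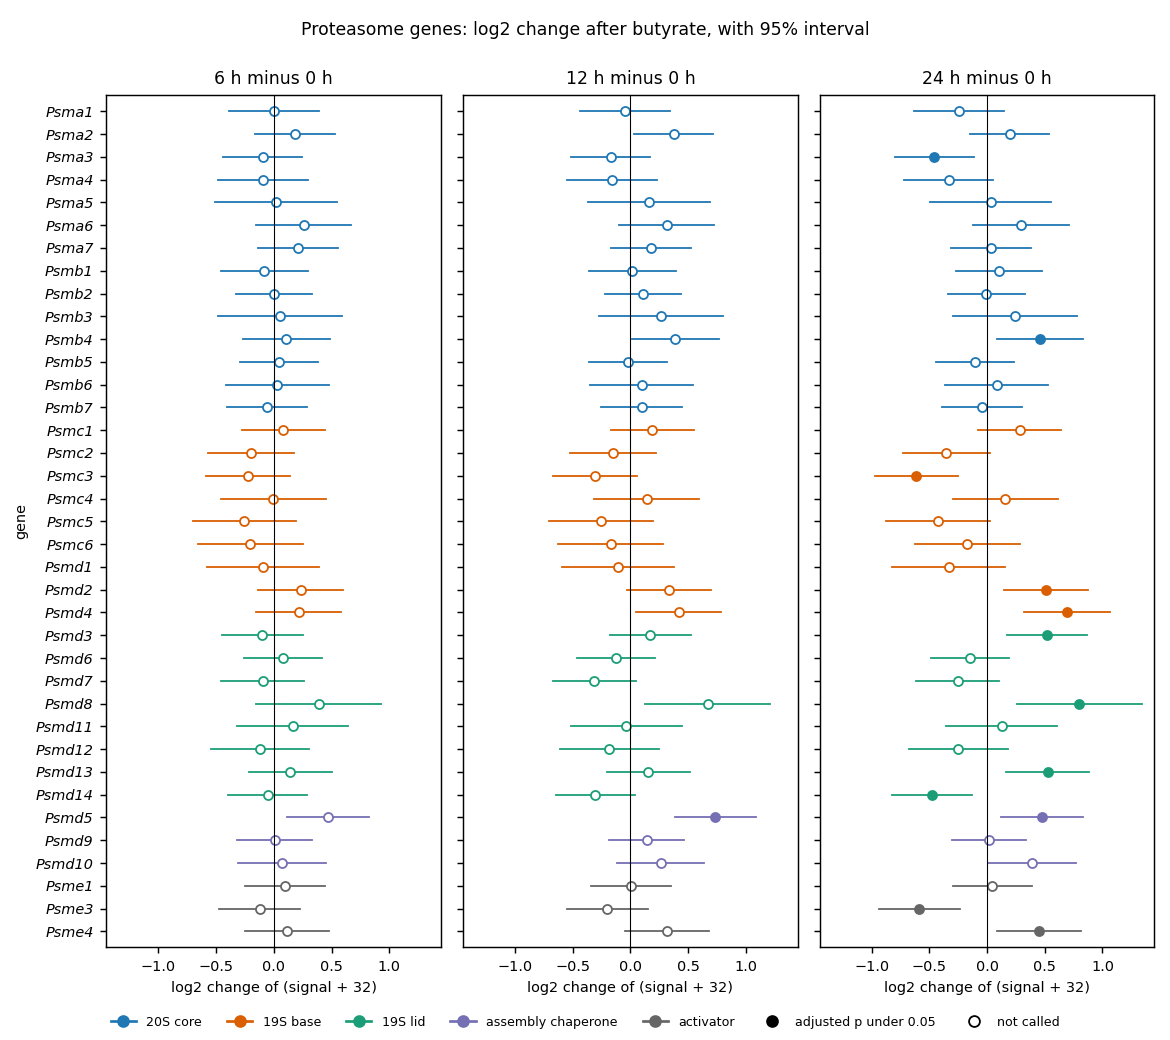
Log2 change of (signal + 32) at 6, 12 and 24 h against 0 h for the 37 tested members, with the 95% interval as a line and colour by class. Filled points passed an adjusted p under 0.05: 0 at 6 h, 1 at 12 h (Psmd5) and 12 at 24 h.

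Psmd5, a chaperone that helps to assemble the base, was the earliest to be called. It had signals of 2245 and 1957 at 0 h, 2764.4 and 3084.4 at 6 h, 3394.1 and 3637.8 at 12 h and 3072.5 and 2798.5 at 24 h. All 6 later arrays lay above both 0 h arrays, and the highest were at 12 h. At 12 h it was 1.67-fold higher (log2 change 0.74 ± 0.16, adjusted p = 0.00552), a call kept under all 18 alternatives (adjusted p of 0.00178 to 0.0462). At 6 h the log2 change of 0.47 ± 0.16 was not called (adjusted p = 0.0723, and 0.0491 with the replicate block), and at 24 h it was 0.48 ± 0.16 (adjusted p = 0.0302; not called without 0 h replicate 2 or either 24 h array). The difference between 24 h and 12 h was not called (log2 change -0.26 ± 0.16, adjusted p = 0.427). Psmd10, the assembly chaperone also called gankyrin, averaged 914 ± 24.4 at 24 h and 689.7 ± 56.4 at 0 h (log2 change 0.39 ± 0.17, adjusted p = 0.0831, and 0.0393 with the replicate block). Psmd9, the third chaperone, had a log2 change of 0.02 ± 0.15.

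The activators, which open the core in place of the 19S particle, differed in direction at 24 h. Psme3, the nuclear activator PA28 gamma, had signals of 598 and 602.7 at 24 h, against 992.4 and 848.5 at 0 h, without overlap (log2 change -0.59 ± 0.16, adjusted p = 0.0112; 0.0841 without 0 h replicate 1, and 0.0583 when its probe sets were averaged). Psme4, the large activator PA200, had 2750.4 and 3419.6 at 24 h, against 2303.4 and 2170.7 at 0 h, also without overlap (log2 change 0.45 ± 0.16, adjusted p = 0.0428). The other kept probe sets of Psme4 changed more (log2 changes of 0.82 and 0.83), while its chosen probe set lost the call in 10 of 18 alternatives (adjusted p up to 0.257). Psme1, the interferon-induced PA28 alpha, had 1538 ± 129 at 24 h and 1489 ± 95.1 at 0 h (log2 change 0.05 ± 0.15, 95% interval -0.30 to 0.39).

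Further probe sets gave a second reading of 16 members, from the same arrays. Of 21 other probe sets that passed the filter, 16 had the sign of the chosen one at 6 h, 20 at 12 h and 16 at 24 h. At 24 h, 7 of them belonged to called members (Psmb4, Psmd4, Psmd13, Psme3 and Psme4). All 7 had the sign of the call. In the limma fit of all named probe sets, which called 44.4% of 11505 probe sets at 24 h, 4 of the 7 were called. These 4 belonged to Psmd4, Psmd13 and Psme4. Those not called were the probe sets of Psmb4 (adjusted p = 0.225) and Psme3 (0.478), and another of Psmd4 (0.305). Between neighbouring times, 0 members were called at 12 h against 6 h, where 4.17% of all genes were. At 24 h against 12 h 0 members were called, where 5.4% of all genes were. At an unadjusted p under 0.05 (limma) the counts were 0 and 2 (5.41%), against 20.5% and 19.4% of all genes.

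Genes that work with the proteasome were read from a list of 39, of which 29 were on the array by name and 27 passed the filter. At 6 h 0 were called, against 15.7% of all genes. At an unadjusted p under 0.05 (limma) there were 4 (14.8%), against 30.1% of all genes. At 12 h 1 rose (Zfand5) and 4 fell (Ecpas, Psmb10, Rad23b and Usp14), 18.5% of the 27 against 35.6% of all genes. Zfand5 lost this call in 12 of 18 alternatives, Usp14 in 4 of 18 and Rad23b in 1 of 18. Psmb10 lost it in 4 of the 17 that tested it, and Ecpas in 0 of 17. With no filter on low signals the 12 h count was 2 in place of 5, with 15.3% of all genes called. The count also fell when any 1 of the 4 arrays compared was left out. At 24 h 4 rose and 8 fell, 44.4% of the 27 against 48.1% of all genes. With no filter this count of 12 was 4, with 24.6% of all genes called. It also fell when any 1 of the 4 arrays compared was left out. The rises at 24 h were Ubqln2, Ngly1, Zfand2a and Ube3c, and the falls Ecpas, Psmb10, Usp14, Vcp, Nploc4, Akirin2, Rad23b and Sem1. Ecpas, Psmb10 and Usp14 kept the 24 h call when any 1 array was left out, and the other 9 lost it without at least 1 array. Among those, the adjusted p was then up to 0.247 for Ngly1, 0.142 for Zfand2a, 0.173 for Ube3c, 0.176 for Nploc4, 0.116 for Akirin2 and 0.0813 for Rad23b. Ubqln2, a shuttle protein that carries ubiquitinated substrates, averaged 4556 ± 542 at 24 h and 2943 ± 119 at 0 h (log2 change 0.62 ± 0.18, adjusted p = 0.0172; not called with no filter on low signals or without either 0 h array or 24 h replicate 1). Ecpas, an adaptor that binds the assembled particle, averaged 119.5 ± 12.7 at 24 h and 346 ± 106 at 0 h (log2 change -1.29 ± 0.24, adjusted p = 0.0014), a call kept under each alternative that tested the gene. Its 12 and 24 h arrays all lay below the filter cut of 144.7, so Ecpas passed only through its 0 and 6 h arrays. The stricter filter did not keep it. Usp14, a deubiquitinase that binds the base, was 1.83-fold lower (adjusted p = 0.00237), and Vcp, the segregase that extracts ubiquitinated proteins, 1.58-fold lower (adjusted p = 0.00891; not called without 0 h replicate 2 or 24 h replicate 1). Sem1, a small lid subunit outside the name rule, was 1.39-fold lower (adjusted p = 0.0274; not called with no filter or without 0 h replicate 1 or either 24 h array).

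The inducible subunits were at low signals. Psmb10, a catalytic subunit of the immunoproteasome, had 105.6 and 158.3 at 24 h, against 284.6 and 308.9 at 0 h, a 2.03-fold fall (log2 change -1.02 ± 0.21, adjusted p = 0.00284). Psmb8 and Psmb9 did not pass the filter and were not tested. Psmb9 had 65.7 and 92.4 at 24 h and 27.8 and 3.9 at 0 h, and Psmb8 had 6.4 and 31 at 24 h and 5.1 and 6.3 at 0 h. Pomp, the chaperone that matures the core, was not called (log2 change 0.35 ± 0.16, adjusted p = 0.0967), nor were the inhibitor Psmf1 (0.12 ± 0.19) and the transcription factors Nfe2l1 (0.17 ± 0.21) and Nfe2l2 (-0.16 ± 0.16). Adrm1, a ubiquitin receptor, was not analysed here.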

How the data were processed

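The 8 samples are total RNA on Affymetrix Mouse 430A arrays, per the labels. The deposited table gives 1 linear intensity for each of 22690 probe sets, and no source used here names the software behind it. The arrays had the same trimmed mean, so the intensities had been scaled before they were deposited, and were used as they stood. There are no detection calls, and 21.2% to 26.4% of the values of an array lay below 32.

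Of the probe sets, 20380 have 1 gene in the platform annotation, 691 several and 1555 none; symbols were checked against RefSeq (GRCm38.p6), which changed 0. The filter kept probe sets above the median of all values (144.7) on 2 or more arrays, and the kept probe set of highest mean stood for its gene. All 8 arrays were fitted with limma 3.58.1 (R 4.3.3; lmFit and eBayes, residual df 4, prior df 6.37) on log2(signal + 32), and tested on simulated data. Errors are the SD of 2 arrays for signals and the standard error for log2 changes.

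The members, lists and tests were chosen with earlier results of these data known. Named with values are the extremes of each class at 24 h, and fixed catalytic, receptor, chaperone, activator and partner genes; other names, and Usp14, Vcp and Sem1, were chosen after their values were seen. The difference between replicates 1 and 2 correlated over genes at 0.125 to 0.382 for the 6 pairs of times. The main fit did not pair the arrays. They were paired by number only in the replicate block alternative, which rests on the data and not the labels. Alternatives were a lower and a higher pseudocount, filters, quantile normalization, probe set averaging, a fit of all named probe sets, eBayes with trend and robust options, only the 4 arrays compared, the replicate block and leaving out each array. The number of arrays limits the precision.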

Additional observations from a re-analysis of the deposited data

Results flagged for a closer look

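The signal differed between neighbouring times for 2 of the genes read beside the members. Over all genes, 4.17% were called at 12 h against 6 h and 5.4% at 24 h against 12 h. With no filter on low signals these shares were 0.00807% and 0.944%. Of the 27 partners, 1 (3.7%) was called at 12 h against 6 h and 0 at 24 h against 12 h. How far the calls below hold under the alternatives is not reported here. Ecpas was lower at 12 h than at 6 h (113.5 and 68.3 at 12 h, against 193.6 and 240.1 at 6 h; log2 change -1.04, adjusted p = 0.0407). Psmc3ip, known for a role in meiotic recombination, was lower at 24 h than at 12 h (137.8 and 115.5 at 24 h, against 307.9 and 381.9 at 12 h; log2 change -1.24, adjusted p = 0.0086). Its 24 h arrays, and the 12 h arrays of Ecpas, lay below the filter cut of 144.7.

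The probe set shared by Psme2, which encodes PA28 beta, and Psme2b was in no comparison, since it names no single gene. Its mean signal at 12 h was 1128.5 ± 66.8, above both 0 h arrays, with 713 ± 33.9 at 0 h, 974 ± 32.5 at 6 h and 1018 ± 42.5 at 24 h (SD, n = 2).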

How the results depend on the processing

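Over 37 members and 3 comparisons with 0 h, 111 values were recomputed under 18 alternatives. In 1924 of the cases the side of the threshold was kept, in 54 a call was lost and in 20 one was gained, and no called value changed sign. The count of members higher at 6 h became 1 (Psmd5) in place of 0 in some alternatives. These were averaged probe sets (18.8% of all genes called), the higher pseudocount (16.8%), the replicate block (21.7%), and the trend and robust eBayes (16.7%). At 12 h the count was 5 in place of 1 with the replicate block (42.4% of all genes called in either direction). It was 3 with averaged probe sets (39.3%), the higher pseudocount (37.2%), and the trend and robust eBayes (37%). With only the 4 arrays compared (36.1%) and with the stricter filter (37.6%) it was 2. At 24 h, 8 higher and 4 lower became 1 and 2 without a filter. That fit covered 12393 genes and called 24.6% of them. The reason for the change was not tested. When 1 array was left out, the counts ran from 0 to 0 at 6 h in both directions, 1 to 2 higher and 0 to 0 lower at 12 h, and 1 to 7 higher and 0 to 4 lower at 24 h.

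Averaging the probe sets of a gene moved the median log2 change of the base at 24 h to -0.0638, and that of the lid to -0.0212 at 6 h, -0.136 at 12 h and -0.220 at 24 h; quantile normalization moved the lid at 6 h to 0.0349. With 1 array left out, the medians of the core ran from -0.00759 to 0.0689 at 6 h, 0.0462 to 0.179 at 12 h and -0.0197 to 0.0649 at 24 h, those of the base from -0.166 to 0.159, -0.110 to 0.0956 and -0.255 to -0.0194, and those of the lid from -0.0066 to 0.0731, -0.113 to 0.0126 and -0.171 to 0.174. The cause was not tested. With the replicate block, the calls gained among members were Psmd5 at 6 h, Psma2 (adjusted p = 0.0458), Psmb4 (0.0392), Psmd4 and Psmd8 at 12 h and Psmd10 at 24 h, and no call of a member was lost.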

Other observations

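The name rule takes Psme3ip1 as well, whose protein binds PA28 gamma. It averaged 629 ± 22.1 at 24 h and 898 ± 137 at 0 h (log2 change -0.48 ± 0.18, adjusted p = 0.0438, and up to 0.253 under the alternatives). Psmc3ip averaged 127 ± 15.8 at 24 h and 455 ± 125 at 0 h, 3.02-fold lower (adjusted p = 0.000231).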
